A study of Homo sapiens with 6 samples.

Results

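Copying the genome once per cell division needs a set of proteins that work in a fixed order, and 52 genes that encode them were followed here in SKOV3 cells after depletion of the long noncoding RNA DNM3OS. The genes were taken as a named list and are 52 of the 34834 genes with a transcript among those quantified. They cover the 6 subunits of the MCM2 to MCM7 helicase, MCM8, the 6 subunits of the origin recognition complex, 3 licensing factors, 8 factors that activate the helicase, 6 genes of the sliding clamp and its loader, 9 of the polymerases and primase, 2 of flap removal and ligation, 3 of the single-strand binding protein RPA, 5 of nucleotide supply, 2 of chromatin assembly and TOP1. SKOV3 is an established human ovarian carcinoma line with amplified ERBB2, the gene for HER2. RNA was sequenced from 3 samples transfected with a pool of 4 siRNAs against DNM3OS and from 3 samples given non-targeting siRNA, both at 50 nM and both collected 48 h after transfection. The question asked of the data was whether the expression of the replication machinery differed between the 2 groups. The labels do not say that replicates came from separate cultures, so the p-values measure only the spread between these samples, which may be technical. DNM3OS itself was not analysed here, so the depletion could not be checked from these values.

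Before S phase, the origin recognition complex with CDC6 and CDT1 loads MCM2 to MCM7 onto DNA as an inactive ring, and geminin, encoded by GMNN, blocks loading at a second round. The kinase CDC7 with its activator DBF4, then CDC45 and the GINS complex, turn the ring into a working helicase. Primase starts each strand, polymerases delta and epsilon extend it on the PCNA clamp, and FEN1 and LIG1 join the pieces. Many of these genes are transcribed mainly in late G1 and S phase through E2F factors, and their mRNA levels are used as a sign of how many cells in a culture are cycling.

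RefSeq start windows of GRCh38.p14, reaching from 250 bases before to 50 bases after a gene's annotated start, were matched to 46 of the 52 genes. A word of the E2F type (TTTCCCGC, TTTCGCGC, TTTGCCGC or TTTGGCGC, on either strand, with overlapping words allowed) stood in 22 of the 61 windows of the replication genes (36.1%), from 22 genes, and in 3.31% of all 35116 windows. The shorter word CCAAT stood in 50.8% of the replication gene windows and in 34.6% of all windows. Windows of 3 genes are shown: MCM6 had the largest fold change among the replication genes tested, MCM2 the next, and RRM1 was the other tested gene whose groups did not overlap. None of the 3 passed the test between the groups given below, and any link of these words to expression was not tested. They lie at chr2:135876394-135876693 on the minus strand (MCM6), chr3:127598161-127598460 on the plus strand (MCM2) and chr11:4094435-4094734 on the plus strand (RRM1). Capitals mark the E2F-type words; each run of capitals holds overlapping words read from both strands, so that MCM6 had 4 matches in 2 runs and MCM2 had 2 in 1 run.
MCM6: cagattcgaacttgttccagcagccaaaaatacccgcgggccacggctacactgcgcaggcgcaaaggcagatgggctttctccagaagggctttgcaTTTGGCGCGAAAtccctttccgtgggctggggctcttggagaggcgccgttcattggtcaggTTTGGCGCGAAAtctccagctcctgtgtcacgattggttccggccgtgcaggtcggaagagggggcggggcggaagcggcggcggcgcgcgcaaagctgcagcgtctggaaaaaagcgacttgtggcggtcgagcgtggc
MCM2: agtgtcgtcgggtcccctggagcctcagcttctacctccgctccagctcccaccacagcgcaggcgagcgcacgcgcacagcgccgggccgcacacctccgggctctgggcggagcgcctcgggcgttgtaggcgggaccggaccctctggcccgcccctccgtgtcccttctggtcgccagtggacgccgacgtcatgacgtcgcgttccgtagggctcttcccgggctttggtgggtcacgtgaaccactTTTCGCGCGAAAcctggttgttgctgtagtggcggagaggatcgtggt
RRM1: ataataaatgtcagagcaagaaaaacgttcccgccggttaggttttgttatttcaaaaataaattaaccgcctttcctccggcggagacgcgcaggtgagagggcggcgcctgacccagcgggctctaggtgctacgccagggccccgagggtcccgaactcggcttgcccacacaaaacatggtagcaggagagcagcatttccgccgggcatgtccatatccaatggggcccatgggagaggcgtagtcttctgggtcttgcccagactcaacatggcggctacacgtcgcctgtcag
These letters are not in the RRM1 window shown, which says nothing of what binds there.

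The samples held between 1523046 and 1868325 estimated counts on annotated genes, and a count of 0 allows up to 3 counts, which in CPM (counts scaled to TMM-adjusted library totals) is 1.40 to 2.11 and covers counting error only. The replication genes together took between 0.173% and 0.233% of these counts. Cytoplasmic ribosomal protein genes (76 genes), whose mRNAs are abundant in dividing cells, took 0.189%, 0.348% and 0.363% after knockdown and 0.508%, 0.285% and 0.490% in controls. The gene PLLP, not on the list, took between 15.7% (knockdown sample 1) and 22.2% (knockdown sample 2) of the counts. Ribosomal protein shares are thus low for abundant mRNAs, and the reason was not tested. Levels given below are those of this quantification and may not stand for mRNA levels. Knockdown sample 1 stood apart from the rest: in a chi-square comparison of counts over genes, divided by the degrees of freedom, it scored 6.25 or more against each other sample, while pairs of the other samples scored 2.18 to 5.16. Of 10 epithelial and HER2 markers, 7 had counts in every sample, with ERBB2 and KRT8 at 311 counts or more. KRT7, among these 7, had only 4 to 12 counts and was too low to be tested. MUC16 and MSLN had 3 counts or fewer. Markers of other cells summed to at most 117 TPM (immune; CD3E and CD14 had 3 counts or fewer, PTPRC 91 to 148), 80.3 TPM (fibroblast; PDGFRB and LUM at 3 counts or fewer), 16.7 TPM (endothelial; VWF and KDR at 3 counts or fewer) and 6.06 TPM (erythroid; HBA1, HBA2 and HBB all at 3 counts or fewer).

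No replication gene passed the test between the groups. With edgeR's exact test over 11814 genes, 0 of the 43 replication genes with enough counts were at least 2-fold lower or higher at an adjusted p below 0.05, where 1 gene of all those tested was lower (0.00846%) and 0 were higher (0%). At an unadjusted p below 0.05 stood 2 of the 43, MCM6 and RFC1, beside 345 of all genes (2.92%). The counts at an unadjusted p below 0.05 were 2 by edgeR's quasi-likelihood test, 1 by DESeq2 and 6 by limma voom, again with 0 at an adjusted p below 0.05. The shares over all genes by these other tests are not given here, so these counts cannot be called high or low. The log2 fold change was below 0 for 31 of the 43 and above 0 for 12, with a median of -0.14 beside 0.0042 over all genes tested. In 2 of the 43, MCM6 and RRM1, all 3 knockdown values lay below all 3 control values, beside 420 of all genes (3.56%), and in 0 did they lie above, beside 522 of all genes (4.42%). MCM6 passed the count filter only through the controls, where it was high. Since these are bulk samples, fewer cells in S phase and less RNA per cell cannot be told apart in any of these values.

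The precision set what could be seen. By limma voom, the 95% interval of the fold change stayed within 2-fold for 25 of the 43 genes, reached 2-fold or more for 18 and left out 0 for 6 before any adjustment, with a median width of 1.28 on the log2 scale. For the 6, too, the share over all genes is not given here. The 9 genes with too few counts to be tested were GMNN, CDC7, CDC45, RFC3, POLA1, PRIM1, POLD1, POLD2 and RPA2, with a median of 6 and at most 20 counts in a sample. In 4 of these 9 (GMNN, CDC7, RFC3 and POLD1) the knockdown CPM all lay below the control CPM. The same held for 165 of the 3823 untested genes with at least 20 counts in all, the total of the lowest of the 9 (4.32%).

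**Figure D1:**
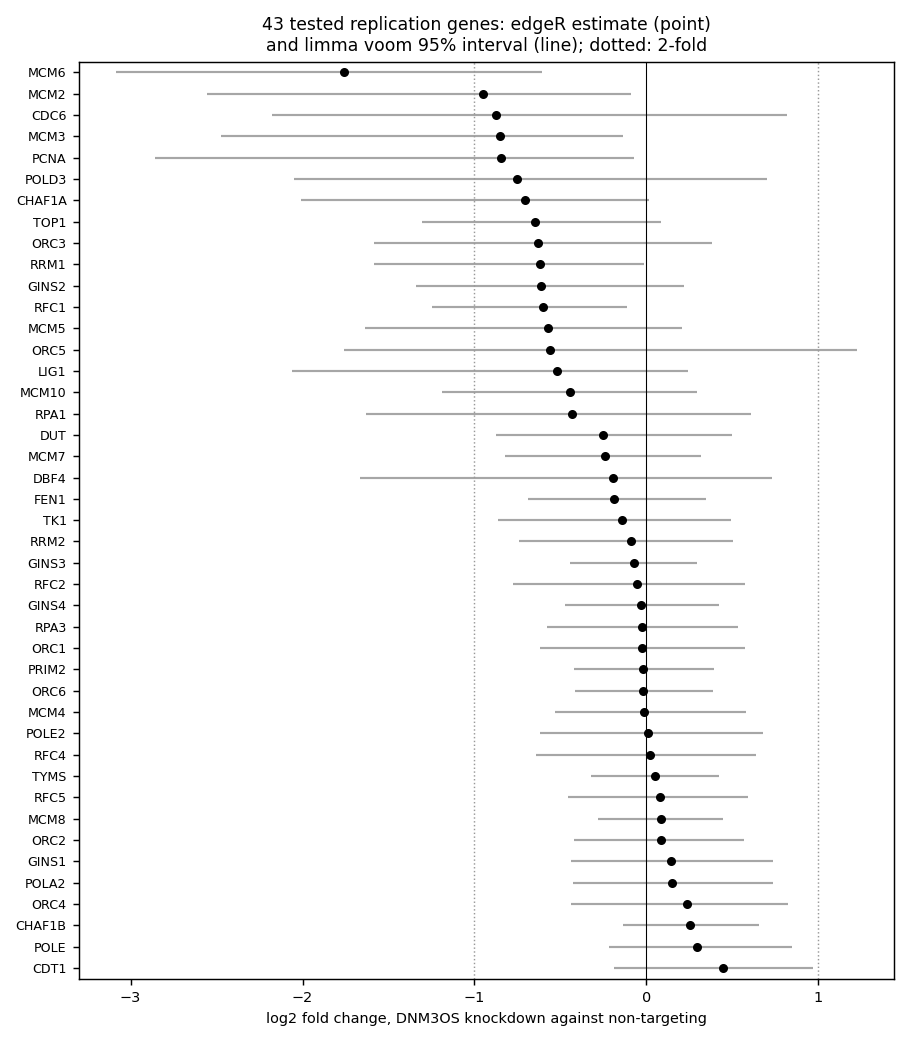
Log2 fold change (knockdown against non-targeting, n = 3 each) of the 43 tested replication genes, with the edgeR estimate as a point, the limma voom 95% interval as a line and 2-fold marked by dotted lines. Estimates run from -1.76 (MCM6) to 0.45 (CDT1), with 31 below 0 and 12 above.

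Levels between genes were compared per length, as TPM (abundance scaled for transcript length and library total) averaged over the 6 samples. They ran from 1.499 TPM for RFC3, a clamp loader subunit, to 306 TPM ± 104 (SD, n = 6) for the GINS subunit GINS3, with a median of 19.9 TPM. ORC6 (171 TPM ± 9.48), RFC1 (160 TPM ± 36.7), ORC4 (134 TPM ± 47.5), RFC5 (134 TPM ± 20.1) and POLE2 (97.0 TPM ± 16.2) followed. GINS3 differed from ORC6, and RFC5 from POLE2, by more than either SD, and the neighbours between them in this order did not. PCNA, the clamp that every fork carries, had 14.0 TPM ± 7.70, MCM2 had 19.98 TPM ± 12.7 and MCM6 had 3.68 TPM ± 2.06. In several of the genes at the top of this order, the counts lay on transcripts other than the coding mRNA. For ORC6, 92.6% of counts were on ORC6-207, annotated as a retained intron, and for RFC1, 61.9% were on RFC1-211, a transcript of 483 bases with no coding sequence defined. POLE2-207, of 300 bases and also with no coding sequence defined, held 63.8% of POLE2 counts. For 38 of the 52 genes the transcript with most counts was a protein-coding one, as for MCM6 (MCM6-201, 95.9%), CDT1 (CDT1-201, 99.1%), PCNA (PCNA-201, 100%) and TOP1 (TOP1-201, 100%). Retained-intron transcripts held most counts of 5 genes: MCM4, MCM7, ORC6, RFC4 and POLA1.

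**Figure D2:**
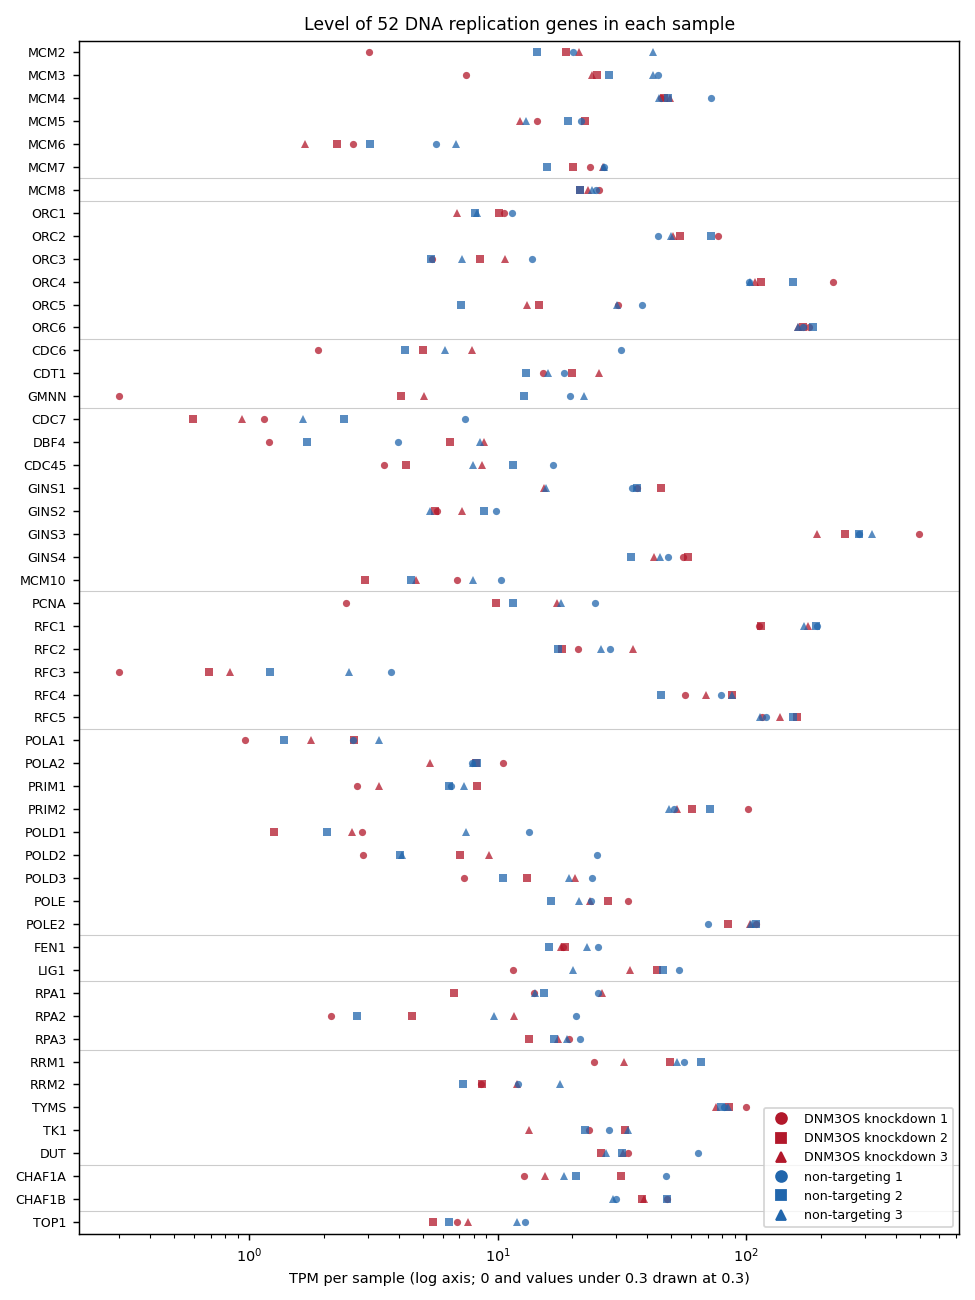
TPM (log axis) of the 52 replication genes in each of the 6 samples, with red for DNM3OS knockdown, blue for non-targeting and the marker shape for the replicate number; grey lines separate the roles, and values under 0.3 are drawn at 0.3. Mean levels span 1.499 to 306 TPM, and red and blue points overlap in most rows.

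The replicative helicase was the group with the largest median shift over tested genes. All 6 of MCM2 to MCM7 had an estimate below 0, with a median log2 fold change of -0.71, and 0 of the 6 passed the test. Their summed level was 62.3, 121 and 98.9 CPM after knockdown (94.1 ± 29.6, SD, n = 3) and 159, 99.5 and 143 CPM in controls (134 ± 30.7, SD, n = 3). The groups overlapped, since control 2 lay below knockdown sample 2.

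MCM6, on chromosome 2 (135839626 to 135876443, minus strand, GRCh38), had 5, 9 and 3 counts after knockdown and 25, 12 and 22 in controls. In CPM this was 2.33, 6.08 and 2.11 against 14.2, 7.86 and 12.9, so that the lowest control stood above the highest knockdown sample by less than the spread within either group. The log2 fold change was -1.76 ± 0.44 (SE), with an unadjusted p of 0.000718 and an adjusted p of 0.606 by edgeR's exact test with Benjamini-Hochberg adjustment. It lay between -2.36 and -1.48 when any 1 sample was left out. No exon on the other strand overlaps the gene. MCM6 passed the count filter through the 3 controls alone, as each knockdown sample was below it. Its place among the tested genes therefore rests on the group where it was high. These are few counts, and an exact permutation test of 3 against 3 samples cannot go below 0.1, which it reached for MCM6 and RRM1.

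MCM2 had 2.79, 12.8 and 11.2 CPM after knockdown and 19.9, 9.82 and 20.6 CPM in controls. MCM3 had 5.12, 29.7 and 23.2 CPM against 41.0, 24.9 and 37.1 CPM. In both, knockdown sample 1 was the lowest of all and control 2 lay among the knockdown samples. The log2 fold changes were -0.95 ± 0.66 (MCM2) and -0.85 ± 0.74 (MCM3), and without knockdown sample 1 they were -0.47 and -0.37. MCM5 (-0.57 ± 0.40) also had its lowest value in that sample. MCM7 had 22.3, 34.4 and 27.4 CPM after knockdown and 33.6, 24.9 and 40.0 CPM in controls (-0.24 ± 0.26). MCM4 did not follow the others: it had 25.1, 26.3 and 25.3 CPM against 34.2, 22.9 and 20 CPM, an estimate of -0.01 ± 0.22 whose 95% limma voom interval ran from -0.53 to 0.58. Its 3 knockdown values lay inside the control range. MCM8, a related helicase, acts in repair by recombination and is no part of the ring. It had 83.7, 77.0 and 77.9 CPM against 74.0, 74.6 and 77.1 CPM. Its log2 fold change was 0.08 ± 0.04, with a 95% limma voom interval from -0.28 to 0.44.

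Of the 6 origin recognition subunits, 4 had an estimate below 0 and 2 above, with a median of -0.02. ORC4 alone held more counts than any other replication gene: 1712, 690 and 646 after knockdown and 729, 964 and 701 in controls, which is 796, 466 and 453 CPM against 415, 631 and 412 CPM. Knockdown sample 1, which had the lowest helicase sum, was the highest here, and control 2 came next. Its log2 fold change of 0.24 ± 0.33 became -0.071 without knockdown sample 1. Of its counts, 90.2% lay on a single protein-coding transcript of 6328 bases. ORC6 was close to level, with 189, 212 and 201 CPM against 196, 223 and 191 CPM (-0.02 ± 0.08, limma voom interval -0.42 to 0.39). ORC2 (0.09 ± 0.23) and ORC1 (-0.02 ± 0.23) also had intervals within 2-fold, and ORC3 (-0.63 ± 0.35) and ORC5 (-0.56 ± 0.71) did not.

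The licensing factors pointed in different directions. CDT1, which brings the helicase to origins and is destroyed in S phase, had the highest estimate of all 43 genes, with 30.2, 46.6 and 56.1 CPM after knockdown and 37.0, 28.8 and 30.6 CPM in controls (0.45 ± 0.28). Knockdown samples 2 and 3 lay above every control and knockdown sample 1 lay among them. CDC6, the loading ATPase, had 4.65, 9.46 and 8.42 CPM against 23.9, 3.27 and 13.5 CPM, and its estimate of -0.88 ± 0.78 rested on control 1, without which it was -0.20. GMNN, the inhibitor of CDT1, had 0, 5 and 6 counts after knockdown and 17, 9 and 20 counts in controls. It fell below the count filter, so it has no test, and the 0 in knockdown sample 1 allows up to 1.40 CPM.

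Of the 8 helicase-activating genes, CDC7 and CDC45 had too few counts to be tested, and the other 6 had a median log2 fold change of -0.13. CDC7 had 5, 2 and 3 counts against 8, 5 and 6 (2.33, 1.35 and 2.11 CPM against 4.56, 3.27 and 3.53 CPM), and CDC45 had 4, 6 and 8 counts against 12, 8 and 12. DBF4, on 66 counts in all, had 2.79, 6.08 and 10.5 CPM after knockdown and 9.11, 4.58 and 7.65 CPM in controls (-0.20 ± 0.51). GINS3 and GINS4 had more counts. GINS3 had 89.8, 88.5 and 78.6 CPM against 87.7, 91.7 and 90.6 CPM (-0.07 ± 0.06), and GINS4 had 40.0, 42.5 and 49.8 CPM against 39.9, 41.2 and 53.5 CPM (-0.03 ± 0.16). In both the groups overlapped and the limma voom interval stayed within 2-fold. For GINS3 the direction turned when only transcripts without opposite-strand overlap were counted. GINS1 (0.14 ± 0.29), GINS2 (-0.61 ± 0.28) and MCM10 (-0.45 ± 0.36), which helps start the helicase, did not pass the test.

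PCNA had 4, 13 and 22 counts after knockdown and 36, 15 and 26 in controls, or 1.86, 8.78 and 15.4 CPM against 20.5, 9.82 and 15.3 CPM. Knockdown sample 3 lay at the level of control 3, and sample 1 was far below all others. The log2 fold change of -0.85 ± 0.78 became -0.33 without knockdown sample 1. RFC1, the large subunit of the clamp loader, had 26.0, 35.8 and 54.0 CPM against 62.1, 53.7 and 58.2 CPM. Knockdown sample 3 just passed control 2, and the log2 fold change was -0.60 ± 0.30 with an unadjusted p of 0.0409 and an adjusted p of 1 by edgeR's exact test. RFC5, a small subunit, had 65.6, 111 and 98.9 CPM against 80.9, 105 and 74.1 CPM (0.08 ± 0.27). RFC2 (-0.06 ± 0.28) and RFC4 (0.02 ± 0.35) lay near 0, and RFC3, with 0, 1 and 2 counts against 9, 3 and 5, was not tested.

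Among the 9 polymerase and primase genes, 5 were tested, with a median log2 fold change of 0.01. PRIM2, the primase large subunit, had 47.0, 54.7 and 50.5 CPM after knockdown and 45.6, 51.7 and 56.5 CPM in controls (-0.02 ± 0.11). POLE2, a subunit of polymerase epsilon, had 14.0, 10.8 and 12.6 CPM against 10.3, 15.1 and 12.4 CPM (0.01 ± 0.18). In both genes the groups lay over one another, and both 95% limma voom intervals stayed within 2-fold. POLE, the catalytic subunit, had an estimate of 0.30 ± 0.19 and POLA2, of the primase complex, of 0.15 ± 0.17. POLD3 (-0.75 ± 0.62) had its highest value in control 1. POLD1, the catalytic subunit of polymerase delta, was seen in only 1, 2 and 2 counts after knockdown and 12, 4 and 9 in controls, which is too few to test.

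FEN1, which cuts flaps between Okazaki fragments, had 25.1, 25.7 and 28.8 CPM against 38.2, 24.9 and 27.1 CPM (-0.19 ± 0.19). LIG1, which seals them, had 4.19, 17.6 and 20.3 CPM against 26.2, 17.0 and 15.9 CPM, and its estimate of -0.52 ± 0.67 was -0.05 without knockdown sample 1. RPA3 had 18.1, 14.9 and 18.9 CPM against 15.4, 18.3 and 19.4 CPM (-0.03 ± 0.14). RPA1, the large subunit of the single-strand binding protein, had 4.19, 4.73 and 10.5 CPM against 13.1, 7.20 and 5.29 CPM (-0.43 ± 0.49). Of these 4 genes, LIG1 was lowest by far in knockdown sample 1, and in all 4 the groups overlapped.

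Nucleotide supply held the other gene whose groups did not overlap. RRM1, the large subunit of ribonucleotide reductase, on chromosome 11 (4094707 to 4138932, plus strand, GRCh38), had 22, 41 and 36 counts after knockdown and 65, 43 and 51 in controls. In CPM these were 10.2, 27.7 and 25.3 against 37.0, 28.2 and 30.0, so that knockdown sample 2 and control 2 all but met. The log2 fold change was -0.62 ± 0.44, with an adjusted p of 1 by edgeR's exact test, and without knockdown sample 1 it was -0.25. Most RRM1 counts (56.5%) were on a transcript of 3166 bases annotated for nonsense-mediated decay. RRM2, the small subunit that limits the enzyme in S phase, had an estimate of -0.09 ± 0.29. TYMS, thymidylate synthase, was among the steadiest genes, with 65.6, 68.9 and 69.5 CPM against 67.8, 60.9 and 68.2 CPM (0.05 ± 0.06, limma voom interval -0.32 to 0.42). TK1 (-0.14 ± 0.28) and DUT (-0.25 ± 0.28) did not pass the test either.

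CHAF1A and CHAF1B, subunits of the same histone chaperone, had estimates on either side of 0. CHAF1A had 5.58, 21.6 and 18.2 CPM after knockdown and 30.2, 17.7 and 24.7 CPM in controls (-0.71 ± 0.59, and -0.27 without knockdown sample 1). CHAF1B had 92.6, 89.8 and 87.0 CPM against 72.3, 87.7 and 66.5 CPM (0.25 ± 0.12), with control 2 just above knockdown sample 3. TOP1, which relieves twist ahead of the fork, had 15.8, 14.9 and 20.3 CPM against 32.5, 16.4 and 30.6 CPM (-0.65 ± 0.33). Control 2 lay among the knockdown samples, as it did for MCM2 and MCM3.

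The size of the shift below 0 varied with the samples kept. With any 1 sample left out, the median log2 fold change stayed below 0, between -0.33 (without control 2) and -0.06 (without control 1). Knockdown sample 1 was the lowest of the 6 samples for 17 of the 43 genes (39.5%; 29.8% of all genes tested) and control 1 the highest for 20 (46.5%; 19.8% of all genes tested). The same samples had the lowest and the highest share of ribosomal protein counts, 0.189% and 0.508%. With both of these samples left out, the median log2 fold change was -0.0045, with 42 genes tested, and with the ribosomal protein share as a covariate it was 0.01. MCM6 was -1.32 and -1.21 in these fits, with adjusted p of 1 and 0.999 by edgeR, and RRM1 was -0.13 and -0.22. CDT1 was 0.79 and 0.77, and PCNA was -0.06 and 0.04. Both alternatives were chosen after the data had been seen, and why these samples differed in the ribosomal protein share was not tested. Knockdown sample 1 and control 1 were singled out by the values of these same genes. Leaving them out was therefore bound to draw the median toward 0. As the ribosomal protein share differed in part between the groups, such a covariate can take up some of any group difference. Neither fit can tell a group difference from one between samples.

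**Figure D3:**
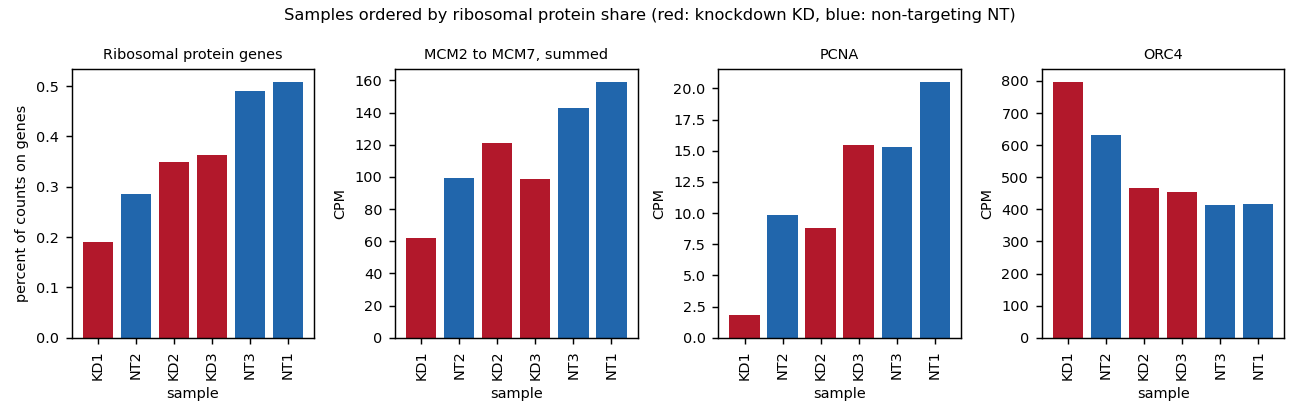
Share of counts on 76 ribosomal protein genes (percent) and the CPM of MCM2 to MCM7 summed, PCNA and ORC4 in each sample, ordered by the ribosomal protein share (red KD, knockdown; blue NT, non-targeting). Knockdown sample 1 is lowest in the first 3 panels, at 0.189%, 62.3 CPM and 1.86 CPM, and highest for ORC4, at 796 CPM.

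The summed level of all 52 genes was 2025, 1919 and 1900 CPM after knockdown (1948 ± 67.2, SD, n = 3) and 2026, 2030 and 1890 CPM in controls (1982 ± 79.6, SD, n = 3). ORC4 set much of it, and without ORC4 the sums were 1228, 1453 and 1447 CPM (1376 ± 128, SD, n = 3) against 1610, 1399 and 1478 CPM (1496 ± 107, SD, n = 3). In both sums the groups overlapped.

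Several replication genes share exonic bases with a gene on the opposite strand, and the strand option of the quantification is not given in the sources used here, so reads of such a pair may not be told apart. Exons on the other strand overlapped 22 of the 52 genes, 11 of them with a gene that had counts. MCM7 had 303 counts over the 6 samples and AP4M1, which shares 392 bases with it, had 2094, or 6.91 times as many. TYMS had 670 counts and ENOSF1, which shares 465 bases, had 3020. ORC4 was the other way round, with 5442 counts against 334 for ACVR2A. RFC5 (874) and WSB2 (1185) were closer, and RPA1 (74) and DBF4 (66) had fewer counts than SMYD4 (394) and SLC25A40 (245). Over the 10 partners with enough counts to be tested, log2 fold changes ran from -0.50 (EIF4A2, opposite RFC4) to 0.26 (HSD17B6, opposite PRIM1), and each had an adjusted p of 1 by edgeR's exact test. The median log2 fold change was -0.14 for the 23 tested genes with no exon on the other strand and -0.13 for the 20 with one, and -0.11 when only transcripts free of such overlap were counted (33 genes tested).

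**Figure D4:**
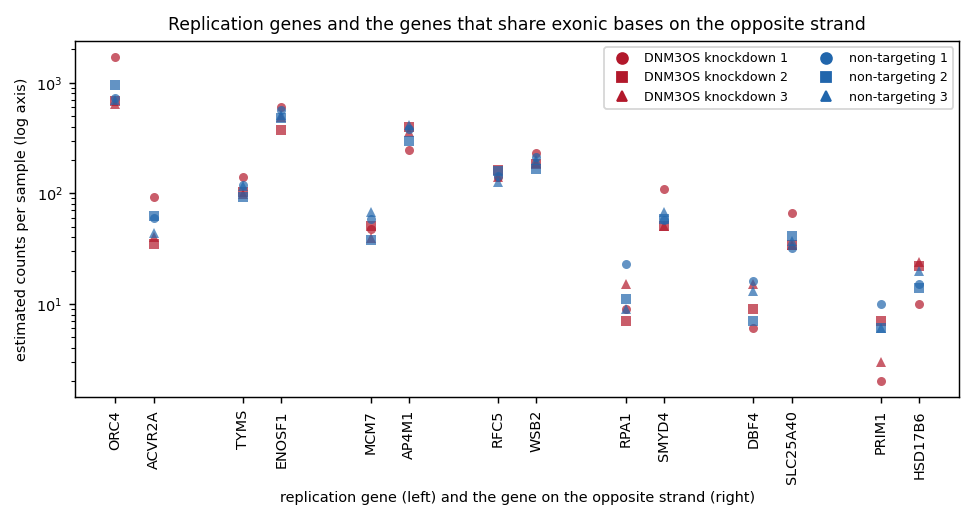
Estimated counts per sample (log axis) of 7 replication genes and, to the right of each, of the gene that shares exonic bases with it on the opposite strand; red is knockdown, blue non-targeting and the shape the replicate number. AP4M1 and ENOSF1 lie above MCM7 and TYMS in every sample, and ORC4 lies above ACVR2A.

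A further 78 genes of the same process were described in the same way: other licensing and origin factors, fork factors, nucleotide metabolism, S phase regulators and replication-coupled chromatin factors. Of these, 65 were tested, 0 passed in either direction with edgeR's exact test, 3 had an unadjusted p below 0.05 (2.92% of all genes tested did), and 40 lay below 0 and 25 above, with a median of -0.10. The groups did not overlap in CPM for 3, all lower after knockdown, where 3.56% of all genes tested lay in that way. CDKN1B, the cyclin-dependent kinase inhibitor p27, had 8, 7 and 4 counts against 15, 10 and 16 (-1.11 ± 0.21). It passed the count filter only through the controls. Its 95% limma voom interval ran from -2.11 to -0.056 before any adjustment. SUPT16H, a subunit of the FACT histone chaperone, had 75, 84 and 85 counts against 134, 93 and 114 (-0.45 ± 0.26). UHRF1, which maintains DNA methylation behind the fork, had 23.3, 23.6 and 25.3 CPM against 34.2, 27.5 and 34.1 CPM (-0.41 ± 0.11). The limma voom intervals were -1.01 to 0.034 (SUPT16H) and -0.87 to 0.057 (UHRF1). All 3 had an adjusted p of 1 by edgeR's exact test.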

How the data were processed

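RNA was sequenced from 6 SKOV3 samples, 3 per group by their titles. The authors quantified stranded libraries with kallisto 0.43.0 (per the submitters' processing notes and the methods) against Ensembl GRCh38 transcripts, and deposited per transcript an estimated count, not normalized, and a TPM, scaled for length. Whether a strand option was set is not given in the sources used here.

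Transcripts were joined to GENCODE 44 by identifier (155518 of 173259), and gene totals of the estimated counts were rounded to whole numbers. Genes were filtered with filterByExpr (minimum count 10), scaled by TMM and compared with edgeR's exact test (edgeR 4.0.16, R 4.3.3), the study's test, with Benjamini-Hochberg adjustment over 11814 genes, and called at 2-fold and an adjusted p below 0.05. CPM use TMM-scaled totals. SE are of the difference between group means of log2 CPM (prior count 2), and the prior count narrows the spread at low counts. They are not SE of the edgeR estimates and, from 3 samples a group, can fall below counting error. Intervals are from limma 3.58.1 (voom), and opposite-strand overlaps from bedtools 2.31.1. The fits were tested on simulated data.

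Named are 2 genes per role by mean TPM, those whose groups do not overlap, the 5 largest changes and up to 6 with most opposite-strand overlap; other genes named were chosen after their values were seen. The genes and lists were chosen with earlier results of these data known. Alternatives were a quasi-likelihood test (plain, or blocked on replicate number), DESeq2 1.42.0, limma voom, other scalings and filters, other transcript sets and leaving out samples.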

Additional observations from a re-analysis of the deposited data

How the results depend on the processing

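No replication gene reached an adjusted p below 0.05 under any of the 22 settings. The median over replication genes moved by less than the spread between replicates in each. That spread, an SD of 0.24 for the median log2 CPM, is larger than the median fold change of -0.14. A shift lost altogether would thus still count as not moved, so this comparison cannot show that the median was stable. Without 1 sample it lay between -0.33 (without control 2) and -0.06 (without control 1). Replication genes with all knockdown values below all controls were 4 to 15 without 1 sample (6.02% to 14.99% of all genes), with 15 of 47 tested without control 2, where the share of all genes was 14.99%, and 7 of 52 without a filter (3.17% of all genes) or with a filter of 1 CPM (3.999%). Those above were 1 to 3 without 1 sample (6.73% to 12.8% of all genes), 1 with RLE scaling, without a filter, with length-scaled TPM counts or without opposite-strand overlap and 2 with coding transcripts alone (4.15% to 4.46% of all genes in these settings), and 6 of 42 without both samples 1 (15.7% of all genes). Over all genes, 0 were lower at 2-fold with the quasi-likelihood test, DESeq2, limma voom, no opposite-strand overlap or the ribosomal protein covariate, 2 without a filter or at 1 CPM, 3 with length-scaled counts or coding transcripts, 4 with transcripts outside the annotation, and 0 to 3 without 1 sample; those higher were 1 with library totals or transcripts outside the annotation, 2 with coding transcripts or without both samples 1, and 0 to 1 without 1 sample. Depth limits the genes with under about 20 counts a sample.

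The replicate numbers showed no clear pairing of the samples: the correlations of same-numbered deviations were -0.40, -0.34 and 0.23. Those of differently numbered samples ran from -0.41 to 0.53. With 3 samples a group these values depend on one another and cannot decide whether samples were paired. With the replicate block, 0 genes were lower and MCM4 was at 0.014.

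Of the 27 tested genes named by the rule, 10 kept their direction in every setting, MCM6 and RRM1 among them in those that could give a value. The direction turned for POLE2 with DESeq2 (-0.0060) and at 1 CPM (-0.00028); for MCM4 with limma voom (0.021) and library totals (0.013), as for RPA3 (0.00098). With length-scaled counts it turned for MCM7 (0.00094), MCM8 (-0.025), DBF4 (0.24), GINS3 (0.036), GINS4 (0.27) and PRIM2 (0.30), with coding transcripts for RFC5 (-0.082) and RPA3 (0.10), and without opposite-strand overlap for GINS3 (0.35) and POLE2 (-0.022). With the ribosomal protein covariate it turned for MCM4 (0.12), MCM7 (0.11), ORC4 (-0.24), CDC6 (0.51), DBF4 (0.63), GINS4 (0.093), PCNA (0.045), PRIM2 (0.013), POLE2 (-0.23), FEN1 (0.022) and LIG1 (0.039), and without both samples 1 for MCM4 (0.27), ORC4 (-0.18), ORC6 (0.0047), CDC6 (0.076), DBF4 (0.42), POLE2 (-0.22), FEN1 (0.071), LIG1 (0.21) and RPA1 (0.29). Without 1 sample, estimates that changed sign ranged from -0.18 to 0.25 (MCM4), -0.071 to 0.48 (ORC4), -0.072 to 0.062 (ORC6), -0.74 to 0.21 (DBF4), -0.12 to 0.11 (GINS4), -0.083 to 0.29 (RFC5), -0.10 to 0.051 (PRIM2), -0.13 to 0.16 (POLE2), -0.29 to 0.019 (FEN1), -0.94 to 0.017 (RPA1) and -0.13 to 0.066 (RPA3). The cause was not tested.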

Other observations

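Some genes of the further replication list were singled out after their values were seen. They had control 2 far below controls 1 and 3 and at the level of the knockdown samples. TOP2A, the topoisomerase that untangles sister chromatids, had 36, 96 and 112 counts after knockdown and 325, 75 and 207 counts in controls, with a log2 fold change of -1.16 ± 0.88 (SE). DNMT1, which copies DNA methylation onto the new strand, had 73, 46 and 88 counts against 174, 48 and 162 counts (-0.84 ± 0.61). SSRP1, the FACT subunit that works with SUPT16H, had 17, 37 and 58 counts against 105, 38 and 83 counts (-0.88 ± 0.75). The groups overlapped for all 3, and none passed edgeR's exact test, each with an adjusted p of 1.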
